A study of Rattus norvegicus with 18 samples.

Results

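The genes described here are those of fatty acid synthesis and desaturation. A list of 10 symbols (Fasn, Acaca, Acly, Scd, Srebf1, Elovl6, Acss2, Me1, Fads1 and Fads2) was matched to the gene names of the expression table, and 9 of them were found among its 13188 genes. Scd was not analysed under that symbol. RefSeq gives Scd1 as a synonym of Scd, and Scd as a synonym of Scd2, so that Scd1 or Scd2 of the table may be the tenth member. The stearoyl-CoA desaturases that the table names, Scd1 and Scd2, are therefore described beside the members and stand outside their counts and medians. Either would add 1 rising gene in each set, and Scd1, but not Scd2, would also add 1 falling gene with siAHR-5 and 1 lower gene for the difference between the sets. RNA was sequenced from 18 cultures of HO15.19 cells, Rat1 fibroblasts that lack functional endogenous myc, to compare cells with and without human MYC and cells transfected with siRNAs against the aryl hydrocarbon receptor (AHR). There were 6 groups of 3 cultures. All of them were myc-/- and grew in 10% FBS. The groups without human MYC were myc-/- (untransfected) and myc-/- siCtrl (control siRNA). The groups with human MYC, stably expressed from a retroviral promoter, were myc-/- + MYC (untransfected), myc-/- + MYC siCtrl (control siRNA) and the AHR-silenced groups myc-/- + MYC siAHR-2 and, with a different siRNA against AHR, myc-/- + MYC siAHR-5. The siRNA was given at 40 nM and cells were harvested 48 h later. MYC in these cells is not under its own promoter, and all cells come from a single parental line. Nothing in the labels says that the cultures of a group were grown separately, so p-values measure the spread between these samples, which may be technical.

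Mammalian cells build fatty acids from acetyl-CoA in the cytosol. ATP citrate lyase and acetyl-CoA synthetase supply the acetyl-CoA, malic enzyme supplies NADPH, acetyl-CoA carboxylase makes malonyl-CoA, and fatty acid synthase joins the units into palmitate. ELOVL6 lengthens palmitate, the stearoyl-CoA desaturases make monounsaturated fatty acids, and FADS1 and FADS2 desaturate polyunsaturated fatty acids taken from the diet or the serum. SREBP-1, the product of Srebf1, is a membrane-bound transcription factor that is escorted by SCAP, retained by INSIG proteins and released by the proteases MBTPS1 and MBTPS2, and it drives most of these genes.

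The values are normalized log2 expression, and log2FC is the difference of group means on that scale. The libraries lay on different scales: a smaller set held 6 libraries, those of myc-/- + MYC and of myc-/- siCtrl, and a larger set held the remaining 12. A first principal component with 74.7% of the variance separated the sets, with scores from 72.9 to 111.7 in the smaller set and from -55.2 to -21.2 in the larger set. For this reason no group was set against a group of the other set. In the smaller set the cells without MYC carried the control siRNA, and in the larger set the cells with MYC carried it, so that within each set MYC and transfection cannot be told apart. Unless the siAHR groups are named, results with MYC in the larger set compare myc-/- + MYC siCtrl with myc-/-. A gene was said to rise or fall when it changed by a fold of 1.5 or more (a log2FC of 0.585 in either direction) with an adjusted p no higher than 0.01 (limma, Benjamini-Hochberg over all genes). Ahr had a log2FC of -1.29 with siAHR-2 and of -1.39 with siAHR-5. Rat Myc had a log2FC of -1.26 on MYC expression in the smaller set and of -2.68 in the larger set. Its means were 9.31 in myc-/- siCtrl and 8.04 in myc-/- + MYC, and 10.89 in myc-/- and 8.21 in myc-/- + MYC siCtrl. The rat gene thus had signal in cells that lack functional myc, and the human MYC transcript was not analysed here. Of 10 fibroblast markers, all were in the table, with Vim between 18.3 and 19.7 in the groups without siAHR and Col1a2 between 3.64 and 4.13 in them, where 13.6% of genes had a lower mean in myc-/- cells. In myc-/- + MYC siCtrl, Col1a2 had a mean of 3.64 and an SD of 3.76e-04, so that this value may be a floor without signal. The myc-/- library of replicate 2 lay farthest from the other cultures of its group, with a root mean square difference of 0.168, against 0.0609 to 0.107 in the other 17 libraries.

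With MYC, the citrate lyase gene Acly and the regulator gene Srebf1 rose in both sets, while the elongase gene Elovl6 and the desaturase gene Fads1 fell in both. In addition, Fasn rose in the smaller set and Fads2 fell in the larger set. Across the table, 6.87% of genes rose in both sets and 8.91% fell in both. In the smaller set, 3 of 9 members rose and 2 fell, against 12.5% and 14.3% of all genes. In the larger set, 2 of 9 members rose and 3 fell, against 10.8% and 14.7%, and the same counts were found without myc-/- replicate 2. The median log2FC of the members was -0.30 in the smaller set and -0.38 in the larger set, and that of all genes was -0.0038 and -0.00014. The libraries of myc-/- + MYC and myc-/- siCtrl did not overlap for any of the 9 members, as for 78.8% of all genes. Those of myc-/- + MYC siCtrl and myc-/- did not overlap for any of the 9 either, as for 70.5% of all genes. The Acaca values of myc-/- + MYC siAHR-5 lay within the range of the myc-/- cells. In bulk RNA, fewer cells of a type and less RNA per cell cannot be told apart.

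**Figure D1:**
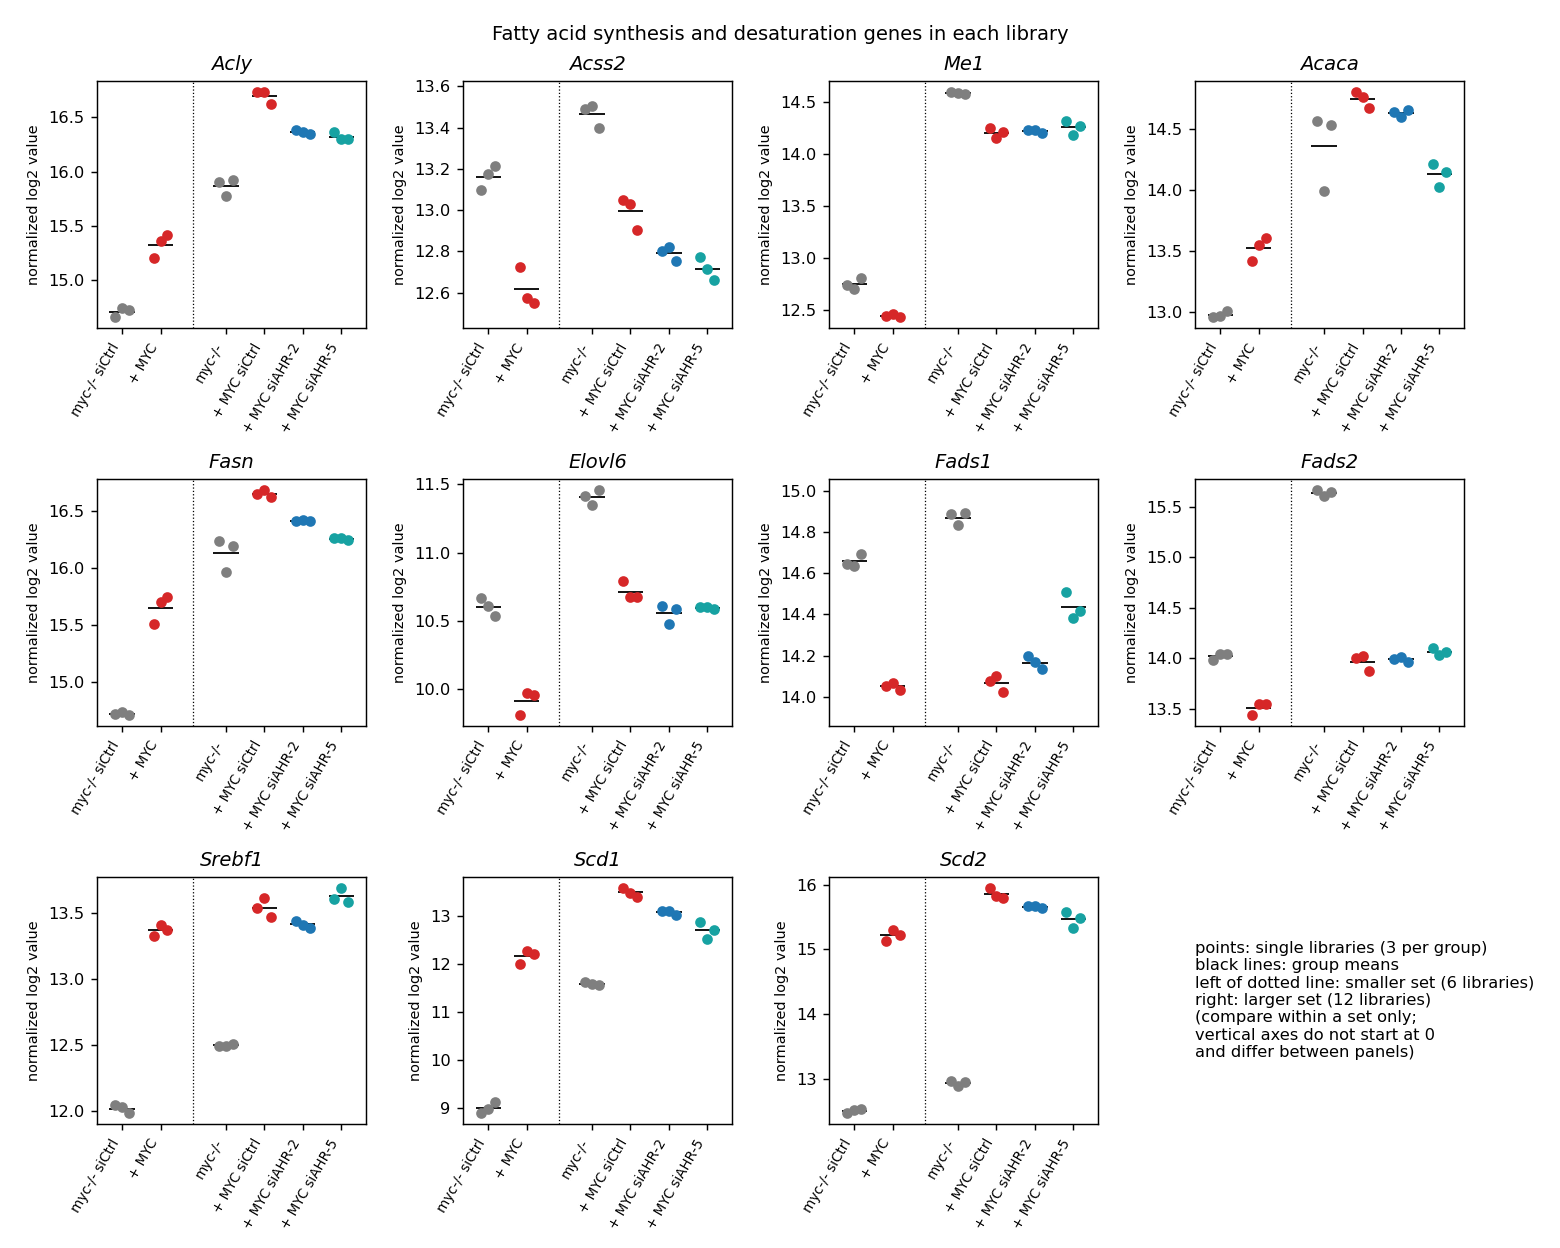
Normalized log2 values (vertical axes) of 9 members, Scd1 and Scd2 in each of 18 libraries, by group (horizontal axes), with the smaller set left and the larger set right of the dotted lines, points for single libraries and black lines for group means. Srebf1, Acly, Scd1 and Scd2 are higher and Elovl6 and Fads1 are lower in all libraries with MYC than in those without it, within each set.

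Sequence upstream of the members was read from RefSeq windows (build GRCr8, not the rn6 build of the alignment), which matched 7 of the 10 listed symbols with 8 windows. Srebf1 and Acly, which rose in both sets, and Fads1 and Fads2, which neighbour each other on the chromosome and are read from opposite strands, are shown as the 250 bases before the annotated start, 5′ to 3′ on the strand of the gene. Capitals mark matches on either strand to any of 5 motifs: the E-box CACGTG bound by MYC, the sterol response element TCACNCCAC bound by SREBP, the CCAAT box, the GC box GGGCGG and the core GCGTG of the xenobiotic response element bound by AHR. The Srebf1 windows lie at chr10:45519011-45519260 and chr10:45529165-45529414, both on the minus strand. The Acly window lies at chr10:85963632-85963881 on the minus strand, that of Fads1 at chr1:216252442-216252691 on the plus strand and that of Fads2 at chr1:216172034-216172283 on the minus strand.
Srebf1, first window: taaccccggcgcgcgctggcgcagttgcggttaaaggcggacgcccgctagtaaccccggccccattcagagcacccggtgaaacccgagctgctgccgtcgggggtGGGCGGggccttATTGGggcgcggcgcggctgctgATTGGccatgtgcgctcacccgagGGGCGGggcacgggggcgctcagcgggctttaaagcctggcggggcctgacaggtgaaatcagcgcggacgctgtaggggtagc
Srebf1, second window: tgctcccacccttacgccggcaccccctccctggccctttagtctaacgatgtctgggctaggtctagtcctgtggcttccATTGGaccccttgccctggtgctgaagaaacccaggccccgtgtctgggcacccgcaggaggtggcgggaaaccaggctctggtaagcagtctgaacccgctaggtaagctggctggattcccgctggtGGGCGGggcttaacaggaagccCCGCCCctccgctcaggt
Acly: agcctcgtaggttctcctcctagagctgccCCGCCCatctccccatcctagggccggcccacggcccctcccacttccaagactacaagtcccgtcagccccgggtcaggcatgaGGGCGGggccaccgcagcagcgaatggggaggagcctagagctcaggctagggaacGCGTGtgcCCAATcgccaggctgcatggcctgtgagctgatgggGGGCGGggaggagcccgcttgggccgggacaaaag
Fads1: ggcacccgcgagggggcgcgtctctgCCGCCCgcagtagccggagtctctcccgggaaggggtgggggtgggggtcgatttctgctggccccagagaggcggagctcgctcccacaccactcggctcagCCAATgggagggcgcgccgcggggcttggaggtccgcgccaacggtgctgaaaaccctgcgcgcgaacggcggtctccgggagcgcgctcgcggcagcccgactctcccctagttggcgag
Fads2: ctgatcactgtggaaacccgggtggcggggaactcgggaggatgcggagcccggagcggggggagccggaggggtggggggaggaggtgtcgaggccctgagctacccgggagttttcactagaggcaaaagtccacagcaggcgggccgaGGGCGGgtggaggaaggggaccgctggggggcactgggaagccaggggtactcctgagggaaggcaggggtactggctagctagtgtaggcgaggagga

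Of the 8 windows, 0 held CACGTG and 0 held TCACNCCAC, which were in 5.59% and 0.974% of 33469 windows of the same length. CCAAT was in 5 of the 8 windows and GGGCGG in 7, against 34% and 30.5% of all windows. The core GCGTG was in 3 (Acly, Me1 and Scd, the last under its RefSeq symbol), against 25.9%. In the sequences above, the only match to GCGTG was in Acly, 79 to 75 bases before the start and with 3 bases between it and a CCAAT box. Both Srebf1 windows held CCAAT and GGGCGG, and the Fads2 window held GGGCGG alone. These are matches of letters in short windows and show no binding. Other forms of these motifs were not searched, so that 0 matches do not show that an element is absent.

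Of the enzymes that supply acetyl-CoA, Acly rose with MYC in both sets and Acss2 was lower without reaching the fold cutoff. Acly, which cleaves citrate exported from mitochondria, had values of 14.66, 14.74 and 14.72 in myc-/- siCtrl and 15.20, 15.36 and 15.41 in myc-/- + MYC. Its values were 15.90, 15.77 and 15.92 in myc-/- and 16.73, 16.73 and 16.62 in myc-/- + MYC siCtrl. Each library with MYC was above each library without it, with a log2FC of 0.62 (SE 0.049, limma adjusted p = 3.72e-07) in the smaller set and of 0.83 (SE 0.055, adjusted p = 4.28e-05) in the larger set. The rise in the smaller set was close to the cutoff and the log2FC came to 0.58, below it, without myc-/- + MYC replicate 3 or with libraries centred on their medians.

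Acss2, which activates acetate, was lower in all libraries with MYC. Its values were 13.10, 13.17 and 13.22 in myc-/- siCtrl and 12.73, 12.57 and 12.55 in myc-/- + MYC, a log2FC of -0.55 (SE 0.050, limma adjusted p = 1.25e-06). The larger set gave 13.49, 13.51 and 13.40 in myc-/- and 13.05, 13.03 and 12.91 in myc-/- + MYC siCtrl, a log2FC of -0.47 (SE 0.051, adjusted p = 3.64e-04). Neither log2FC reached the fold cutoff, and in the smaller set it came to -0.60, past the cutoff, without myc-/- + MYC replicate 1, and to -0.59 with median centring. Me1, the cytosolic malic enzyme, differed least of the 5 members that were lower with MYC. Its values were 12.73, 12.70 and 12.81 against 12.44, 12.45 and 12.43 in the smaller set (log2FC -0.30, SE 0.036, limma adjusted p = 1.20e-05). The larger set gave 14.59, 14.59 and 14.57 without MYC and 14.25, 14.15 and 14.20 with MYC (log2FC -0.38, SE 0.032, adjusted p = 1.13e-04).

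Fasn rose in the smaller set, and Acaca was higher there without reaching the fold cutoff. Fasn, which makes palmitate, had values of 14.72, 14.73 and 14.71 in myc-/- siCtrl and 15.50, 15.70 and 15.74 in myc-/- + MYC, and rose by a log2FC of 0.93 (SE 0.052, limma adjusted p = 1.95e-08), a fold of 1.90. Values of 16.23, 15.96 and 16.19 in myc-/- and 16.65, 16.68 and 16.62 in myc-/- + MYC siCtrl gave a log2FC of 0.52 (SE 0.075, adjusted p = 0.00131), below the fold cutoff. The lowest of the myc-/- values was that of replicate 2, and without that library the log2FC was 0.44. With quantile normalization it was 0.66, past the cutoff. Acaca, the carboxylase that makes malonyl-CoA, had values of 12.96, 12.97 and 13.00 in myc-/- siCtrl and 13.42, 13.55 and 13.61 in myc-/- + MYC, a log2FC of 0.55 (SE 0.045, adjusted p = 5.46e-07) that missed the fold cutoff. It passed with quantile normalization, at 0.67, and without myc-/- + MYC replicate 1, at 0.60. Acaca values were 14.56, 13.99 and 14.53 in myc-/- and 14.80, 14.76 and 14.67 in myc-/- + MYC siCtrl, and the log2FC of 0.38 (SE 0.16, limma adjusted p = 0.0792) had a 95% interval from -0.01 to 0.77. The lowest value was that of myc-/- replicate 2, without which the log2FC was 0.20 (limma adjusted p = 0.0113).

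Srebf1 was the member with the highest log2FC in both sets. Its values were 12.04, 12.02 and 11.98 in myc-/- siCtrl and 13.33, 13.41 and 13.37 in myc-/- + MYC, a log2FC of 1.35 (SE 0.034, limma adjusted p = 3.00e-11) and a fold of 2.56. The larger set gave 12.49, 12.49 and 12.51 in myc-/- and 13.54, 13.61 and 13.47 in myc-/- + MYC siCtrl, a log2FC of 1.04 (SE 0.042, adjusted p = 5.74e-06) and a fold of 2.06. The gap between the groups was many times the spread within them. Transcript levels do not show how much of the SREBP-1 protein was cleaved.

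Elovl6 fell alike in both sets. Its values were 10.66, 10.61 and 10.54 in myc-/- siCtrl and 9.81, 9.97 and 9.95 in myc-/- + MYC, and 11.41, 11.35 and 11.46 in myc-/- against 10.79, 10.67 and 10.68 in myc-/- + MYC siCtrl. The log2FC was -0.69 in the smaller set (SE 0.058, limma adjusted p = 6.59e-07) and again -0.69 in the larger set (SE 0.053, adjusted p = 7.71e-05), and the difference between the sets was 0.00 with a 95% interval from -0.18 to 0.18. Its direction was opposite to that of Fasn, which makes its substrate.

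Fads1 and Fads2 introduce the double bonds of polyunsaturated fatty acids, Fads2 at an early and Fads1 at a later step of the same route. Fads1 had values of 14.64, 14.64 and 14.70 in myc-/- siCtrl and 14.05, 14.06 and 14.04 in myc-/- + MYC, a log2FC of -0.61 (SE 0.028, limma adjusted p = 3.88e-09). It had 14.88, 14.83 and 14.89 in myc-/- and 14.08, 14.10 and 14.02 in myc-/- + MYC siCtrl, a log2FC of -0.80 (SE 0.033, adjusted p = 6.13e-06). The log2FC of the smaller set was -0.38, short of the cutoff, with quantile normalization. Fads2 was lower with MYC in both sets, but by very different amounts. Its values were 13.99, 14.04 and 14.04 in myc-/- siCtrl and 13.44, 13.54 and 13.54 in myc-/- + MYC, a log2FC of -0.51 (SE 0.035, adjusted p = 1.18e-07) that missed the fold cutoff. The larger set gave 15.67, 15.61 and 15.65 in myc-/- and 14.00, 14.02 and 13.88 in myc-/- + MYC siCtrl, so that Fads2 fell by 1.67 on the log2 scale (SE 0.046, adjusted p = 1.45e-06), which leaves 0.313 of the level without MYC.

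**Figure D2:**
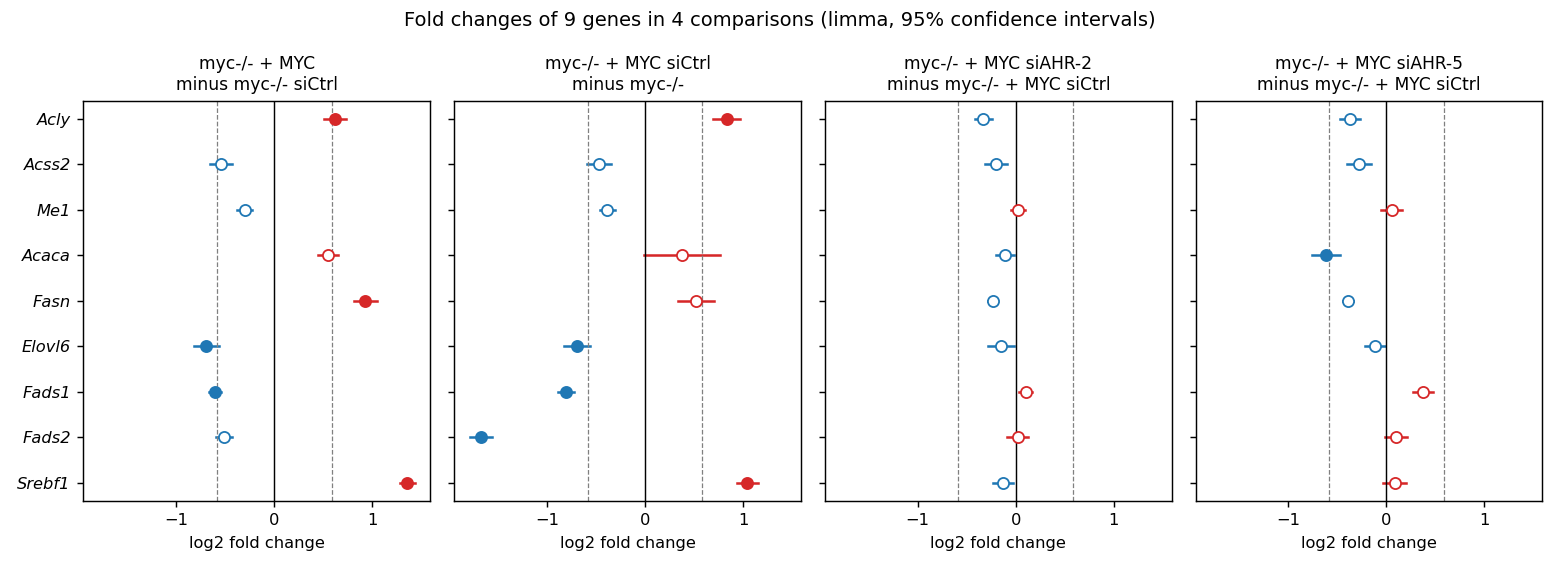
Log2 fold changes (horizontal axes) of 9 members in 4 comparisons, with 95% confidence intervals from limma as lines, filled points for genes past both cutoffs and dashed lines at a log2FC of 0.585 in either direction. With MYC, Srebf1 stands farthest right at 1.35 and 1.04 and Fads2 farthest left at -1.67 in the larger set, and the siRNA effects lie between -0.62 and 0.37.

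The MYC effects of the sets were compared in a single limma fit of 12 libraries. Fads2 was the only member whose difference passed both cutoffs, at -1.16 (larger set minus smaller set, SE 0.062, adjusted p = 7.73e-10), and 9.67% of all genes passed in that direction. Of 9 members, 5 had an adjusted p under 0.05 for this difference, against 54.9% of all genes. Besides Fads2 these were Fasn at -0.41 (adjusted p = 0.00194), Srebf1 at -0.31 (adjusted p = 4.05e-04), Fads1 at -0.20 (adjusted p = 0.00345) and Acly at 0.21 (adjusted p = 0.0347). For Acss2 the difference was 0.08 with a 95% interval from -0.09 to 0.24, for Me1 it was -0.08 with an interval from -0.19 to 0.04, and for Acaca it was -0.17 with an interval from -0.50 to 0.16. The sets differ in scale and in which arm carried the control siRNA, and these cannot be told apart from each other.

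In the cells with MYC, the log2FC of the members on silencing of AHR ran from -0.62 to 0.37, against -1.67 to 1.35 for MYC in both sets. With siAHR-2, 0 of 9 members passed both cutoffs in limma, against 0.470% of all genes. At an unadjusted p under 0.05 there were 7 of 9 (6 lower and 1 higher), against 40.4% of all genes. At an adjusted p under 0.05, 3 members were lower (Fasn, Acly and Acss2) and 1 was higher (Fads1), against 15.5% and 13.7% of all genes. With siAHR-5, Acaca alone passed both cutoffs and fell, against 0.849% of genes that fell across the table. At an adjusted p under 0.05, 4 members were lower (Fasn, Acaca, Acly and Acss2) and 1 was higher (Fads1), against 18.1% and 21.1% of all genes. The median log2FC of the members was -0.13 with siAHR-2 and -0.12 with siAHR-5, and that of all genes was 0.00 and 0.01. Both comparisons use the same myc-/- + MYC siCtrl libraries, which also form the MYC arm of the larger set.

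Fasn had 16.41, 16.42 and 16.41 with siAHR-2 and 16.26, 16.26 and 16.24 with siAHR-5, all below the 16.62 to 16.68 of the siCtrl cells. Its log2FC was -0.24 (SE 0.019, limma adjusted p = 0.00113) and -0.39 (SE 0.022, adjusted p = 3.24e-04), small differences set against a very narrow spread. Acly had 16.38, 16.37 and 16.35 with siAHR-2 and 16.37, 16.30 and 16.30 with siAHR-5, a log2FC of -0.33 (SE 0.035, adjusted p = 0.00245) and -0.37 (SE 0.039, adjusted p = 0.00141). Acss2 had 12.80, 12.82 and 12.76 with siAHR-2 and 12.77, 12.72 and 12.66 with siAHR-5, a log2FC of -0.20 (SE 0.044, adjusted p = 0.0220) and -0.28 (SE 0.050, adjusted p = 0.00832). For these 3 genes the cells with either siRNA lay below the siCtrl cells in every library. Over the members, 7 of 9 had no overlap with the siCtrl cells with siAHR-2 and 7 of 9 with siAHR-5, against 43.3% and 50.5% of all genes.

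Acaca and Fads1 stood apart with siAHR-5. Acaca had 14.64, 14.60 and 14.66 with siAHR-2, a log2FC of -0.11 (SE 0.037, limma adjusted p = 0.0780), and 14.21, 14.02 and 14.14 with siAHR-5, a log2FC of -0.62 (SE 0.057, adjusted p = 9.60e-04). This fall lay just past the fold cutoff: the log2FC was -0.57 without siAHR-5 replicate 2 and -0.58 with quantile normalization, both short of it. Fads1 had 14.20, 14.17 and 14.13 with siAHR-2 and 14.51, 14.38 and 14.42 with siAHR-5, a log2FC of 0.10 (SE 0.028, adjusted p = 0.0485) and 0.37 (SE 0.040, adjusted p = 0.00163). All 6 values lay above the 14.02 to 14.10 of the siCtrl cells and below the 14.83 to 14.89 of the myc-/- cells.

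The remaining members had no adjusted p under 0.05 with either siRNA. Srebf1 had values from 13.39 to 13.44 with siAHR-2 (log2FC -0.13, 95% interval from -0.23 to -0.03) and from 13.59 to 13.69 with siAHR-5 (log2FC 0.09, interval from -0.03 to 0.20). Elovl6 had a log2FC of -0.15 (interval from -0.29 to -0.02) and -0.12 (interval from -0.22 to -0.01). Me1 and Fads2 had intervals from -0.05 to 0.09 and from -0.09 to 0.13 with siAHR-2 and from -0.06 to 0.16 and from -0.01 to 0.21 with siAHR-5.

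Set directly against each other, the siRNAs differed for some members. The log2FC of Ahr was -0.11 (siAHR-5 minus siAHR-2, limma adjusted p = 0.211), and its part in these differences was not tested. Of 9 members, 0 passed both cutoffs, against 2.18% of all genes, and 5 had an unadjusted p under 0.05, against 46.8%. The same number, 5, had an adjusted p under 0.05, against 39.1% of all genes. Acaca was lower with siAHR-5 by 0.51 (siAHR-5 minus siAHR-2, log2FC -0.51, SE 0.048, adjusted p = 9.66e-04) and Fasn had a log2FC of -0.16 (SE 0.012, adjusted p = 4.94e-04). Higher with siAHR-5 were Fads1 at 0.27 (adjusted p = 0.00342), Srebf1 at 0.21 (adjusted p = 0.00474) and Fads2 at 0.08 (adjusted p = 0.0381). For Acly, Acss2, Elovl6 and Me1 the libraries of the siRNAs overlapped, and the 95% intervals of the difference ran from -0.16 to 0.14 at their widest limits.

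**Figure D3:**
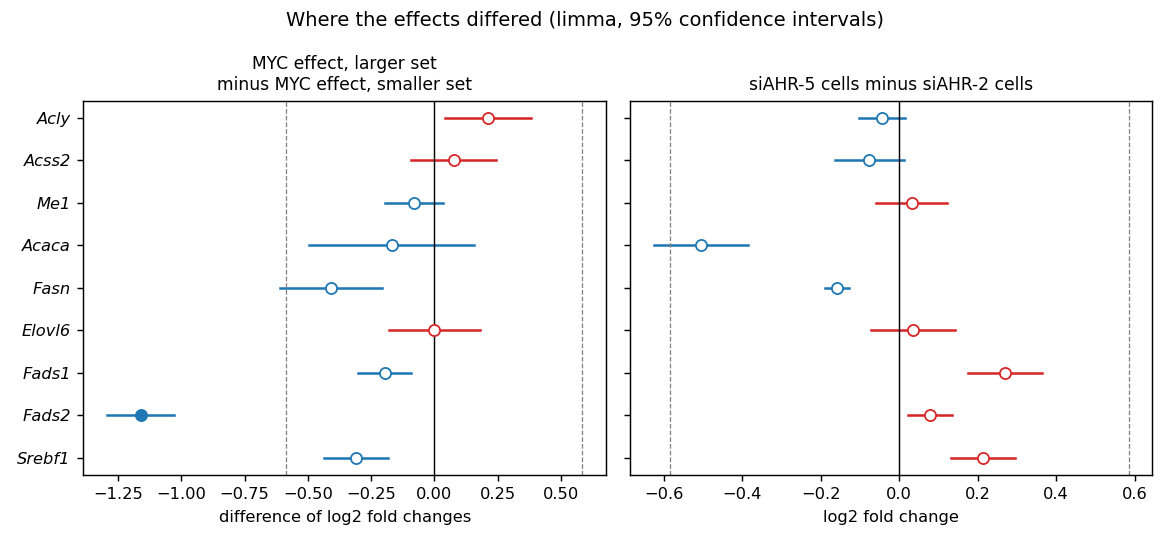
Differences between effects for 9 members, with 95% confidence intervals from limma (horizontal axes in log2 units): the MYC effect of the larger set minus that of the smaller set on the left and siAHR-5 cells minus siAHR-2 cells on the right, with filled points past both cutoffs and dashed lines at 0.585 in either direction. Fads2 at -1.16 is the only filled point, and Acaca at -0.51 is the member farthest from 0 on the right.

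The stearoyl-CoA desaturases, which the table names Scd1 and Scd2, rose more with MYC than any of the 9 members. Scd1 and Scd2 are paralogs, and how reads that match both were counted is not given in the sources used here. Scd1 had values of 8.91, 8.98 and 9.12 in myc-/- siCtrl and 12.01, 12.27 and 12.20 in myc-/- + MYC, a log2FC of 3.16 (SE 0.074, limma adjusted p = 1.70e-11) and a fold of 8.92. It had 11.62, 11.58 and 11.56 in myc-/- and 13.59, 13.49 and 13.41 in myc-/- + MYC siCtrl, a log2FC of 1.91 (SE 0.053, adjusted p = 1.49e-06), and the difference between the sets was -1.25 (SE 0.10, adjusted p = 7.29e-08). Scd2 had 12.48, 12.52 and 12.53 in myc-/- siCtrl and 15.13, 15.29 and 15.22 in myc-/- + MYC, a log2FC of 2.71 (SE 0.040, adjusted p = 5.92e-13). It had 12.96, 12.88 and 12.95 in myc-/- and 15.95, 15.82 and 15.79 in myc-/- + MYC siCtrl, a log2FC of 2.92 (SE 0.049, adjusted p = 2.78e-07). Both genes were thus far above the spread in each set. With siAHR-2, Scd1 had 13.11, 13.10 and 13.02 (log2FC -0.41, adjusted p = 0.00427) and Scd2 had 15.67, 15.66 and 15.64 (log2FC -0.19, adjusted p = 0.0238). With siAHR-5, Scd1 fell to 12.88, 12.52 and 12.71 (log2FC -0.79, SE 0.099, limma adjusted p = 0.00246), and Scd2 had 15.57, 15.33 and 15.49 (log2FC -0.39, adjusted p = 0.0108). The call of Scd1 was lost in 3 of 6 fits that left out a library, with an adjusted p of 0.0113 without siCtrl replicate 1, 0.0130 without siCtrl replicate 2 and 0.0140 without siAHR-5 replicate 3.

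Among the other desaturases, Fads3 lies next to Fads2 on the chromosome in the RefSeq gene order and also fell with MYC. Its values were 15.59, 15.59 and 15.58 in myc-/- siCtrl and 14.19, 14.18 and 14.17 in myc-/- + MYC, a log2FC of -1.41 (SE 0.025, limma adjusted p = 2.37e-12). Values were 16.56, 16.62 and 16.53 in myc-/- and 15.40, 15.47 and 15.34 in myc-/- + MYC siCtrl, a log2FC of -1.17 (SE 0.046, adjusted p = 5.17e-06). The neighbours Fads1, Fads2 and Fads3 were thus all lower with MYC in both sets, with Fads2 short of the fold cutoff in the smaller set. Of 10 genes of the list of other desaturases and their electron donors in the table, 2 rose (Scd1 and Scd2) and 2 fell (Fads3 and Degs1, the ceramide desaturase) in each set. Of all genes, 12.5% rose and 14.3% fell in the smaller set, and 10.8% and 14.7% in the larger set.

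Of 13 genes of SREBP control in the table, only Mbtps2, the intramembrane protease that releases SREBP, rose in each set (log2FC 1.03, SE 0.049, limma adjusted p = 5.19e-09 in the smaller set and 0.76, SE 0.10, adjusted p = 0.00105 in the larger set), and 0 fell. Shares of all genes were 12.5% rising and 14.3% falling in the smaller set and 10.8% and 14.7% in the larger set, with 6.87% rising in both. The siRNAs differed on the partners that hold and move SREBP. Insig1, which retains it in the endoplasmic reticulum, had values from 14.16 to 14.33 in siCtrl cells, 13.23 to 13.29 with siAHR-2 and 13.85 to 14.05 with siAHR-5, a log2FC of -0.98 (SE 0.046, adjusted p = 3.89e-04) and -0.28 (SE 0.065, adjusted p = 0.0207). Scap, its escort to the Golgi, had values from 14.39 to 14.45 in siCtrl cells, 14.51 to 14.58 with siAHR-2 and 13.57 to 13.63 with siAHR-5, a log2FC of 0.13 (SE 0.026, limma adjusted p = 0.0155) and -0.83 (SE 0.026, adjusted p = 1.13e-04). The direct differences (siAHR-5 minus siAHR-2) were 0.70 for Insig1 (adjusted p = 4.33e-04) and -0.96 for Scap (adjusted p = 5.21e-05), both past the cutoffs. With the replicate number as a block the adjusted p of Insig1 with siAHR-2 was 0.0126, short of the cutoff.

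Genes of cholesterol synthesis, the usual targets of SREBP-2, were lower with siAHR-5. All 12 on the list had a negative log2FC, with a median of -0.48 against 0.01 over all genes. Both cutoffs were passed by 3 of the 12, against 0.849% of all genes that fell. At an adjusted p under 0.05 without the fold cutoff 10 of the 12 were lower, against 18.1% of all genes. Among the 3 were Fdps, the farnesyl diphosphate synthase, at -0.85 (SE 0.042, limma adjusted p = 2.76e-04) and Hmgcs1, the HMG-CoA synthase, at -0.75 (SE 0.064, adjusted p = 7.65e-04). With siAHR-2, 0 of the 12 passed both cutoffs, against 0.470% of all genes. At an adjusted p under 0.05, 8 were lower, against 15.5% of all genes, and the median was -0.21. With MYC, 5 of the 12 rose in the smaller set (Hmgcs1, Idi1 and Fdps among them), against 12.5% of all genes, and 1 in the larger set, against 10.8%. The latter was Idi1, the isopentenyl diphosphate isomerase, at 0.68 in the smaller set (SE 0.059, adjusted p = 8.31e-07) and 0.72 in the larger set (SE 0.047, limma adjusted p = 3.93e-05).

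The other lists are given by their counts, to be read against the 12.5% of all genes that rose and the 14.3% that fell in the smaller set, 10.8% and 14.7% in the larger set, and 6.87% and 8.91% in both. Of 12 genes of acetyl-CoA and NADPH supply, 0 rose and 2 fell in each set. Of 11 genes of malonyl-CoA turnover, AMP-activated kinase and mitochondrial synthesis, the kinase subunit Prkag2 fell in both (log2FC -0.89 and -0.67), 0 rose in the smaller set and 1 in the larger set. Of 10 elongation genes, 1 rose and 1 fell in the smaller set, 0 rose and 2 fell in the larger set, and none passed both cutoffs in both sets. Of 15 genes of fatty acid activation and uptake, the acyl-CoA synthetase and transporter Slc27a4 fell in both (-0.86 and -0.93), with 1 rising and 3 falling in the smaller set and 0 and 1 in the larger set. Of 18 genes of glycerolipid synthesis, 1 rose and 3 fell in each set, and Agpat9 (-1.52 and -1.08) and Dgat2, which makes triacylglycerol (-0.81 and -0.88), fell in both. Dgat2 was also the only gene of the pathway lists to rise with an siRNA, with a log2FC of 0.60 with siAHR-2 (SE 0.036, limma adjusted p = 6.03e-04) against 0.08 with siAHR-5, and its call was lost without siAHR-2 replicate 3 (0.58), without siCtrl replicate 2 (0.58) and without siCtrl replicate 3 (0.58). It was also lost with quantile normalization (0.58), with median centring (0.56) and with the replicate block (limma adjusted p = 0.0127).

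**Figure D4:**
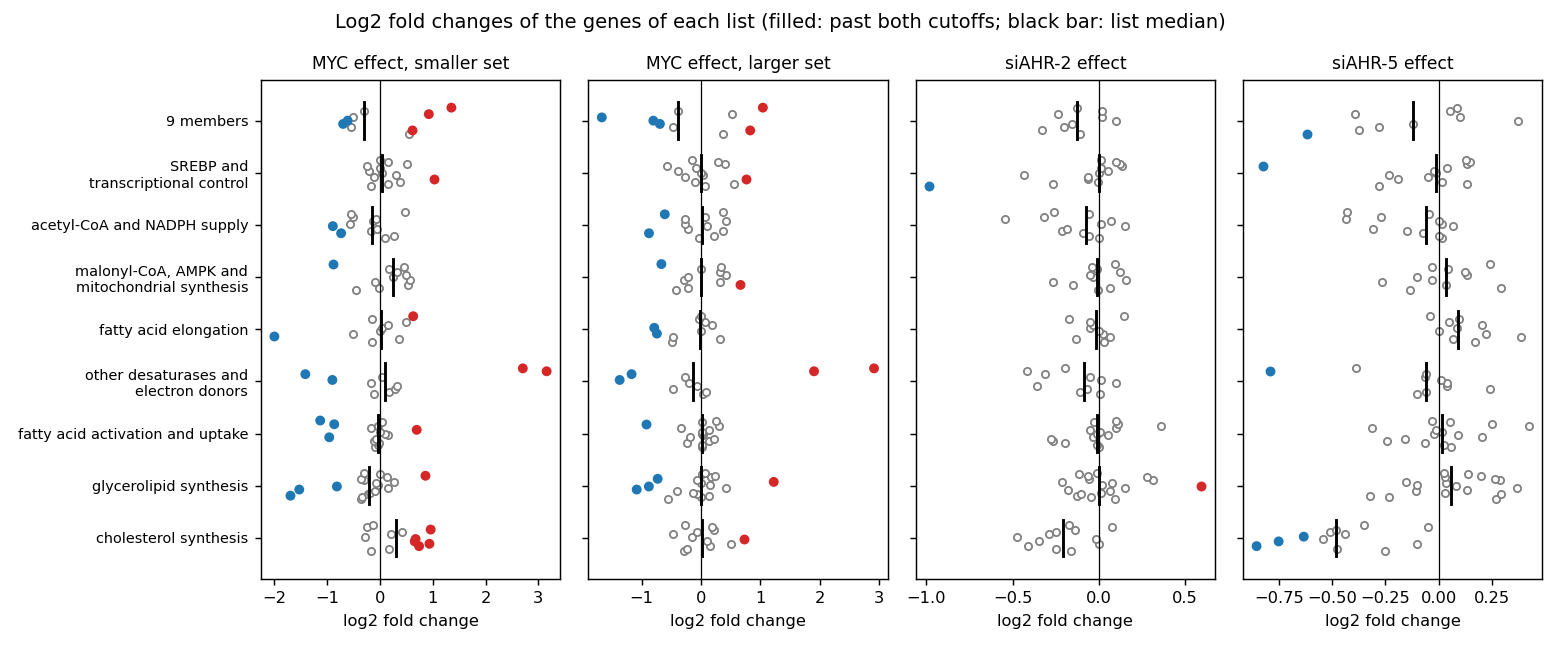
Log2 fold changes (horizontal axes, which differ between panels) of the members and of the genes of 8 pathway lists in 4 comparisons, with filled points past both cutoffs (red higher, blue lower), open points for the others and black bars at list medians. All 12 genes of cholesterol synthesis lie below 0 with siAHR-5, with a median of -0.48, and Scd1 and Scd2 stand at the far right with MYC.

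Adipocytes also express the members at high levels. Some of their markers passed both cutoffs with MYC, in both directions in the smaller set and only lower in the larger set. Of 10 adipocyte markers 7 were in the table, and their summed level (log2) ran from 12.53 to 12.57 in myc-/- siCtrl and 11.60 to 11.86 in myc-/- + MYC, and from 10.23 to 10.39 in myc-/- and 9.01 to 9.21 in myc-/- + MYC siCtrl. It ran from 9.31 to 9.39 with siAHR-2 and from 9.56 to 9.86 with siAHR-5. Adipoq and Cidec, which define these cells, were at 2.42 to 2.51 and 3.68 to 3.97 in myc-/- and myc-/- + MYC siCtrl, with 8.16% and 14% of genes having a lower mean in myc-/-, while Adipoq was at 6.78 to 7.01 in myc-/- siCtrl and 5.76 in myc-/- + MYC. In myc-/- + MYC siCtrl the SDs were 1.32e-04 for Adipoq and 3.62e-04 for Cidec, so that their values in that group may be floors without signal. In the smaller set Cidec had means of 4.19 without and 4.07 with MYC. In myc-/- siCtrl, 26% of genes had a lower mean than Adipoq and 14.6% a lower mean than Cidec. The sums were carried by Cfd and Cebpa, which had means of 11.91 and 10.91 in myc-/- siCtrl and fell in both sets (log2FC -0.77 and -2.03 for Cfd, -1.19 and -0.88 for Cebpa). Fabp4, the fatty acid-binding protein of adipocytes, rose in the smaller set (log2FC 0.70, limma adjusted p = 3.72e-07), while its log2FC in the larger set was 0.14 (adjusted p = 0.121). Of the 7, 1 rose and 3 fell in the smaller set, against 12.5% and 14.3% of all genes. In the larger set 0 rose and 2 fell, against 10.8% and 14.7%. The summed fibroblast markers were also lower with MYC, from 20.77 to 20.79 against 19.81 to 19.90 in the smaller set and from 21.93 to 22.16 against 20.18 to 20.20 in the larger set. The highest of these markers were Col1a1 and Fn1 in the groups without MYC (means of 19.29 and 19.46 in myc-/- siCtrl) and Vim in the groups with it (18.47 in myc-/- + MYC and 19.45 in myc-/- + MYC siCtrl). Of the 10 markers, 1 rose (Col3a1, log2FC 1.30) and 5 fell in the smaller set, where Pdgfra and Vim were higher at an adjusted p under 0.05 without passing the fold cutoff (log2FC 0.25 and 0.13), and 0 rose and 7 fell in the larger set. The same shares of all genes apply to these fibroblast counts.

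Some leukocyte and epithelial markers moved with MYC as well. The summed leukocyte markers, 5 of 6 in the table, ran from 11.71 to 11.86 in myc-/- siCtrl and 10.73 to 10.82 in myc-/- + MYC, and from 11.03 to 11.12 in myc-/- and 10.30 to 10.50 in myc-/- + MYC siCtrl. Cd14 (log2FC -0.99 and -0.74) and Cd3e (-2.09 and -1.13) fell in both sets, while Cd68 had a log2FC of 0.35 (limma adjusted p = 0.00185) and 0.27 (adjusted p = 0.0910). The summed epithelial markers, 5 of 6 in the table, were at most 8.70 without and at least 8.85 with MYC in the smaller set, and ran from 7.89 to 8.03 without and from 8.83 to 9.16 with MYC in the larger set. Krt8, a keratin, rose in both sets (1.70 and 1.17). In the smaller set Cldn4, a tight junction protein, fell (-0.84) and Krt19 was lower at an adjusted p under 0.05 (-0.27), so that the list held 1 higher and 1 lower call and a median log2FC of -0.01. In the larger set Krt8 alone of the 5 had an adjusted p under 0.05, and the median log2FC was 0.01. The higher sum there was carried by Krt8, with means of 7.70 without and 8.87 with MYC. The summed hepatocyte markers, 4 of 6 in the table, were at least 8.93 without and at most 8.52 with MYC in the smaller set, and ran from 9.03 to 9.25 without and from 8.50 to 8.53 with MYC in the larger set. These sums were carried by Tf, with a mean of 8.65 in myc-/- siCtrl. Of the 4 hepatocyte markers, 0 rose and 0 fell in the smaller set, and Tf alone fell in the larger set. With siAHR-2 and siAHR-5 the leukocyte sums ran from 10.31 to 10.48 and from 10.82 to 10.90. The fibroblast sums ran from 19.93 to 19.97 with siAHR-2 and from 19.89 to 19.90 with siAHR-5, all below those of myc-/- + MYC siCtrl, and Vim had a log2FC of -0.36 and -0.48. Of the 10 fibroblast markers 0 fell with either siRNA, against 0.311% of all genes with siAHR-2 and 0.849% with siAHR-5. Their median log2FC was -0.02 with siAHR-2 and 0.01 with siAHR-5. With siAHR-5 the fibroblast marker Thy1 (log2FC 0.75, limma adjusted p = 2.58e-04) and the adipocyte marker Cebpa (0.76, adjusted p = 0.00389) rose, against 0.08 and 0.30 with siAHR-2. The part of these markers in the results was not tested.

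As a description with no test, the genes of the whole table closest to Fasn and to Srebf1 were taken by the Euclidean distance over the 4 log2FC (both sets and both siRNAs, which share control libraries). Closest to Fasn were Exosc5 (distance 0.14), Tma16 (0.15) and Gnb2l1 (0.15), and among the 3 closest to Srebf1 were Rwdd1 (0.09) and Pfkm (0.19). None of the other members was among them.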

How the data were processed

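RNA-seq values of 18 libraries (6 groups of 3) were used. The authors aligned reads to rn6 with HISAT2 2.1.0, dropped genes under 10 reads in total, normalized the rest by DESeq2 and deposited log2 values for 13188 genes. The table is named log CPM, but off the log scale the values sum in each library to 86.3 to 161 times the total of CPM values, so depth is unknown and the spread between cultures is the error. The read counter and annotation are not given in the sources used here. The members, lists and tests were chosen with earlier results of these data known.

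Values as deposited were tested with limma 3.58.1 in R 4.3.3 (lmFit, eBayes with trend, two-sided), Benjamini-Hochberg adjusted over all genes, and only the compared groups entered a fit. The fits were tested on simulated data. The study's DESeq2 fit needs counts and was not run. Named genes were all members, up to 3 genes per list that passed in the same direction in both sets, list genes that passed with an siRNA, Ahr and Myc, and the 3 genes nearest to Fasn and Srebf1. Some genes that this rule picks are not reported here, and Degs1 and the single marker genes were named after their values were seen. Scd3, Scd4 and other listed symbols without a row were not analysed here. Promoter windows came from RefSeq (GRCr8) and were read with Python 3.11.15, and figures were drawn with matplotlib 3.10.9. Marker lists of fibroblasts, adipocytes, hepatocytes, epithelial cells and leukocytes were summed on the linear scale and are given as log2. Alternatives were the FDR of 5% without a fold cutoff, a wider fit, no trend, quantile normalization, median centring, a filter at a mean log2 value of 1, a replicate block from the labels, a pseudocount of 1, and each library left out in turn.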

Additional observations from a re-analysis of the deposited data

Results flagged for a closer look

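The effect of MYC on Fads2 differed between the sets, with a difference of -1.16 (larger set minus smaller set, limma adjusted p = 7.73e-10), all 3 libraries of each MYC group lying below all 3 without MYC in both sets. The effect on Scd1 also differed, by -1.25 (adjusted p = 7.29e-08), with all libraries with MYC above those without in both sets. Between the siRNAs, Scap differed by -0.96 (siAHR-5 minus siAHR-2, adjusted p = 5.21e-05) and Insig1 by 0.70 (limma adjusted p = 4.33e-04), and the libraries of the siRNAs did not overlap for either gene. Of all genes, 9.67% passed both cutoffs on the lower side for the difference between the sets, and 2.18% passed between the siRNAs. Libraries did not overlap for 78.8% of all genes in the smaller set, 70.5% in the larger set and 49.5% between the siRNAs.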

How the results depend on the processing

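With an FDR of 5% and no fold cutoff, the number of members that passed was 9 in the smaller set, 8 in the larger set, 4 with siAHR-2, 5 with siAHR-5, 5 for the difference between the sets and 5 for siAHR-5 against siAHR-2. The shares of all genes were, in the same order, 76.2%, 64.7%, 29.3%, 39.2%, 54.9% and 39.1%. The single call with siAHR-5, Acaca, became 0 with quantile normalization, and the count ran from 0 to 1 when each library was left out. It was lost without siAHR-5 replicate 2. When each library was left out, the count of members ran from 4 to 7 in the smaller set. Values that changed sign were near 0 and had no call. With median centring the log2FC of Me1 was -0.0098 with siAHR-2, -0.0071 with siAHR-5 and 0.0059 for the difference between the sets, and that of Fads2 was -0.011 with siAHR-2. With a library left out, the log2FC with siAHR-2 ran from -0.0046 to 0.044 for Me1 and from -0.025 to 0.048 for Fads2, and the difference of Elovl6 ran from -0.049 to 0.034 between the sets and from -0.0043 to 0.061 between the siRNAs. The labels do not say whether same-numbered samples were handled together. Same-numbered libraries correlated at -0.26 to 0.24, which with 3 cultures per group cannot settle whether they were paired. A replicate block changed no count of members (5 in the smaller set, 5 in the larger set, 0 with siAHR-2, 1 with siAHR-5, 1 for the difference and 0 between the siRNAs). Across all genes the block took the calls with siAHR-2 from 62 to 0. No scaling moved the median of all genes by over 0.1. Depth is unknown, 3 cultures per group limit the precision, the sets are on different scales, and MYC and transfection change together within each set.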
